A study of Mus musculus with 19 samples.

Results

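Kidneys taken after ischemia-reperfusion (IR) were compared with kidneys of sham-operated mice (sham) across 13594 entries of a gene expression table. The comparison used 10 of the 19 libraries of the series, 5 IR and 5 sham, picked by the group named in the sample titles, and was made on all tested entries with attention to genes other than the best-known injury, collagen and macrophage markers. Ischemia-reperfusion interrupts the kidney's blood supply and lets it return. The IR mice were male C57BL/6 mice, an inbred laboratory strain without engineered alleles in the labels, and were killed on day 5 after the injury, with no Lactobacillus named in their titles. The sham mice were of the same strain, and neither the day on which they were killed nor any gavage is given for sham by name. The other 9 libraries came from injured mice given a Lactobacillus strain, L. casei Zhang or L. acidophilus. They entered here only in the choice of tested entries, the estimate of the spread between libraries and the alternative scalings. Whole kidneys were frozen and RNA was extracted with Trizol. The length of the ischemia, whether 1 or both kidneys were clamped, and whether each library is its own mouse could not be read from the labels, so p-values measure the spread between these libraries.

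Most of the kidney's RNA comes from tubule epithelium, above all the proximal tubule, which reabsorbs filtered solutes, breaks down amino acids and conjugates drugs and steroids. That program is held by transcription factors such as HNF4A. After ischemia, surviving tubule cells lose much of the program, spread over the bare basement membrane, re-enter the cell cycle and send signals to fibroblasts, vessels and incoming leukocytes. AP-1 and NF-kB factors respond to stress and cytokines, and interferon regulatory factors drive antiviral genes.

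The libraries were close to each other within a group, with correlations on the log2(FPKM + 1) scale of 0.9816 to 0.9892 between IR libraries and 0.9901 to 0.9929 between sham libraries. FPKM, a level per transcript length and sequencing depth, was at least 1 for 13013 to 13181 entries in IR and for 11988 to 12156 in sham, and the 10 highest entries held 9.0% to 10.5% of all FPKM in IR and 14.8% to 15.8% in sham. Read depth is not stated, and totals of FPKM (545590 to 584798) do not measure it. IR replicate 5 stood apart from the other IR libraries in many of the changed genes, and its values are given with those of the variable genes at the end. All 12 kidney markers were tested. Of these, 9 (75%) were lower, against 18.6% of all entries, and none was higher, with a median log2 difference of -0.88. Their summed level, which is weighted toward the most abundant markers, was 8260 to 15840 FPKM in IR and 36780 to 41190 FPKM in sham. Among markers of other cells, the summed level of 12 neutrophil genes was 14.3 to 21.1 FPKM in IR and 0.89 to 3.41 FPKM in sham, with Elane at 0 in every library. Only 4 of the 12 were tested, and all 4 were higher, against 57% of all entries. The summed level of 15 T and NK cell genes was 12.8 to 33.6 FPKM in IR and 4.82 to 10.4 FPKM in sham. Of 11 tested, 9 (81.8%) were higher, against the same 57%. The sums of 6 other lists were also higher in IR without overlap, as were 48.6% of all single tested entries. They were 17.3 to 22.6 FPKM in IR and 6.25 to 10.4 FPKM in sham for 11 dendritic cell genes, and 15.3 to 23.1 FPKM in IR and 5.37 to 14.3 FPKM in sham for 8 genes of lymphatic endothelium. Of the tested genes of these 2 lists, 4 of 7 (57.1%) and 2 of 5 (40%) were higher, against 57% of all entries. For 12 genes of pericytes and vascular smooth muscle, of which 7 (58.3%) were higher and 2 lower, the sums were 66.7 to 79.8 FPKM in IR and 39.1 to 46.6 FPKM in sham. For 10 Schwann cell and nerve genes they were 25.7 to 28.03 FPKM in IR and 12.1 to 14.9 FPKM in sham. The sums of skeletal muscle genes (4.56 to 5.75 FPKM in IR and 1.1 to 3.41 FPKM in sham) and adrenal genes (1.46 to 1.83 FPKM in IR and 0.88 to 1.02 FPKM in sham) were low in both groups. Genes of red blood cells, with globins that are near-identical copies, summed to 56.7 to 223 FPKM in IR and 234 to 1370 FPKM in sham. These sums were lower in IR without overlap, and all 5 tested were lower, against 18.6% of all entries. Mast cell, adipose, B cell, mesangial and urothelial sums overlapped between the groups, with Cpa3, Cma1, Lep and Retn at 0 in all 10 libraries. In whole-kidney RNA, fewer cells of a type and less RNA per cell cannot be told apart, and the part of these marker levels in the results that follow was not tested.

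In limma, 7747 of 13594 entries (57%) were higher and 2529 (18.6%) were lower in IR than in sham at an adjusted p under 0.05, together 75.6% of those tested. Of the called entries, 1920 (14.1% of those tested) were at least 2-fold higher and 507 (3.73%) at least 2-fold lower. At 4-fold the counts were 467 higher and 65 lower, at 8-fold 94 and 12, and at 16-fold 20 and 2. In 8676 entries (63.8%) the IR and sham libraries did not overlap, 6612 (48.6%) with IR higher and 2064 (15.2%) with IR lower. The median log2 difference over all tested entries was 0.29. A list is therefore read against that shift, and against the 57% of entries that were higher and the 18.6% that were lower, and not against 0. Scaling the libraries by median-ratio size factors brought the median to 0.06 and the counts to 5300 higher (39%) and 4242 lower (31.2%), and quantile scaling brought them to -0.06, 4222 and 5294. Counts of a list or family with median-ratio scaling, higher first, are given where a count moved by 1.5 times or more. The split between higher and lower entries therefore depended on the scaling, while the direction and call of the 23 genes with the largest changes reported here did not.

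The largest rises outside the best-known markers, 11 of which are reported, included a retinoic acid enzyme, proteins of cornified epithelia and genes known from leukocytes. Aoc1, which encodes diamine oxidase, an enzyme that degrades histamine and putrescine, was at 86.1, 76.7, 46.3, 62.1 and 71.3 FPKM in the IR libraries, against 0.78, 1.5, 2.03, 1.44 and 1.19 FPKM in the sham libraries. The naming rule of these rises and of the falls below took only genes without overlap between the groups, so that trait was set in advance. The log2 difference of Aoc1 was 4.85 (SE 0.314, limma adjusted p = 5.71e-10), the largest under the naming rule.

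Aldh1a2, an enzyme that makes retinoic acid from retinaldehyde, was at 40.4, 43.6, 50.5, 44.1 and 48.6 FPKM in IR, against 1.8, 1.6, 1.3, 1.22 and 1.17 FPKM in sham (log2 difference 4.27, SE 0.187, limma adjusted p = 2.76e-11). Cxcl1, a chemokine that draws neutrophils, was at 27, 27.3, 38.2, 25 and 21.2 FPKM in IR and 0.39, 0.08, 0.53, 0.79 and 0.47 FPKM in sham, a log2 difference of 4.30.

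Of the small proline-rich proteins, which are cross-linked into the envelope of cornified epithelia, Sprr1a was at 128, 86.3, 92.1, 70.7 and 70.6 FPKM in the IR libraries, against 1.92, 6.64, 5.66, 8.55 and 3.79 FPKM in the sham libraries. Sprr2f, whose family holds near-identical copies and whose level is therefore uncertain, was at 33.8, 19.7, 38.9, 20.9 and 11.5 FPKM in IR and was listed at 0 in 4 sham libraries and at 0.14 FPKM in sham replicate 2. The log2 differences of Sprr1a and Sprr2f were 3.92 and 4.54. The calcium-binding protein gene S100a6 was at 365 ± 83.1 FPKM in IR against 18.6 ± 2.26 FPKM in sham (SD, n = 5 each, as in all values of this kind), a log2 difference of 4.20. Akr1b8, an aldo-keto reductase gene, was at 37.4 ± 6.19 FPKM in IR against 1.39 ± 0.23 FPKM in sham (4.00 on the log2 scale). The other 4 are known from leukocytes. Fcrls, an Fc receptor-like gene, was at 20.4 ± 4.58 FPKM in IR against 0.272 ± 0.0876 FPKM in sham. Ctss, the lysosomal protease cathepsin S, was at 202 ± 37.9 FPKM in IR against 13 ± 1.1 FPKM in sham. Lyz1, a lysozyme gene, was at 31.2 ± 7.58 FPKM in IR against 1.08 ± 0.353 FPKM in sham, and Bcl2a1b, a survival factor of the BCL2 family, at 28.6 ± 4.67 FPKM in IR against 0.992 ± 0.211 FPKM in sham. Their log2 differences were 4.05, 3.84, 3.94 and 3.89. Lyz1 and Bcl2a1b have near-identical copies with which they may share reads, so their levels are uncertain.

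The 12 largest falls were mostly enzymes and transporters of the tubule for steroids, organic anions and amino acids. Cyp7b1, which hydroxylates oxysterols and steroids, was at 8.32, 5.98, 3.43, 8 and 18.6 FPKM in the IR libraries, against 97.4, 117, 130.2, 139 and 107 FPKM in the sham libraries. The highest IR value was that of replicate 5. The log2 difference was -3.76 (SE 0.552, limma adjusted p = 7.43e-06). Slc7a13, an amino acid transporter of the proximal tubule, was at 55, 38.5, 40.5, 65.3 and 102 FPKM in the IR libraries, against 446, 502, 511, 466 and 555 FPKM in the sham libraries, a log2 difference of -3.11 (limma adjusted p = 0.000122). Dnase1, a secreted nuclease that digests extracellular DNA, was at 48.5, 32.4, 60.3, 84 and 79.2 FPKM in the IR libraries, against 656, 434, 461, 452 and 598 FPKM in the sham libraries, a log2 difference of -3.13. The lack of overlap in these falls was required by the naming rule.

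Other enzymes of steroid and drug metabolism were lower too. Akr1c14, a hydroxysteroid dehydrogenase gene, was at 7.19 ± 4.07 FPKM in IR against 78.6 ± 14.3 FPKM in sham (log2 difference -3.40). Cyp2a4 was at 40.1 ± 21.4 FPKM in IR against 392.4 ± 37.1 FPKM in sham (-3.37) and Cyp2d9 at 18.8 ± 10.1 FPKM in IR against 148 ± 36.8 FPKM in sham (-3.03). The organic anion transporter gene Slc22a19 was at 4.83 ± 3.28 FPKM in IR against 60.9 ± 6.27 FPKM in sham (-3.58) and its relative Slc22a26 at 0.888 ± 0.28 FPKM in IR against 12.3 ± 0.853 FPKM in sham (-2.83). Cyp2a4, Cyp2d9, Slc22a19 and Slc22a26 belong to families with near-identical copies, so these levels are uncertain. Acsm3, which activates medium-chain fatty acids, was at 53.8 ± 26.2 FPKM in IR against 359.9 ± 71.2 FPKM in sham, and C1qtnf3, a secreted C1q and TNF-related protein gene, at 7.46 ± 3.2 FPKM in IR against 51.5 ± 4.9 FPKM in sham. Nccrp1 was at 3.76, 10.3, 1.01, 13.1 and 10.9 FPKM in IR and 23.3, 56.9, 77.9, 62.6 and 36.5 FPKM in sham, with a wide spread in both groups. Ppard, the nuclear receptor PPAR-delta, was at 0.19, 3.33, 0.19, 4.08 and 2.56 FPKM in the IR libraries, against 22.1, 12.5, 18.7, 17.6 and 10.6 FPKM in the sham libraries. It was near 0 in IR replicates 1 and 3 (log2 difference -2.71, SE 0.623, limma adjusted p = 0.000719).

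**Figure D1:**
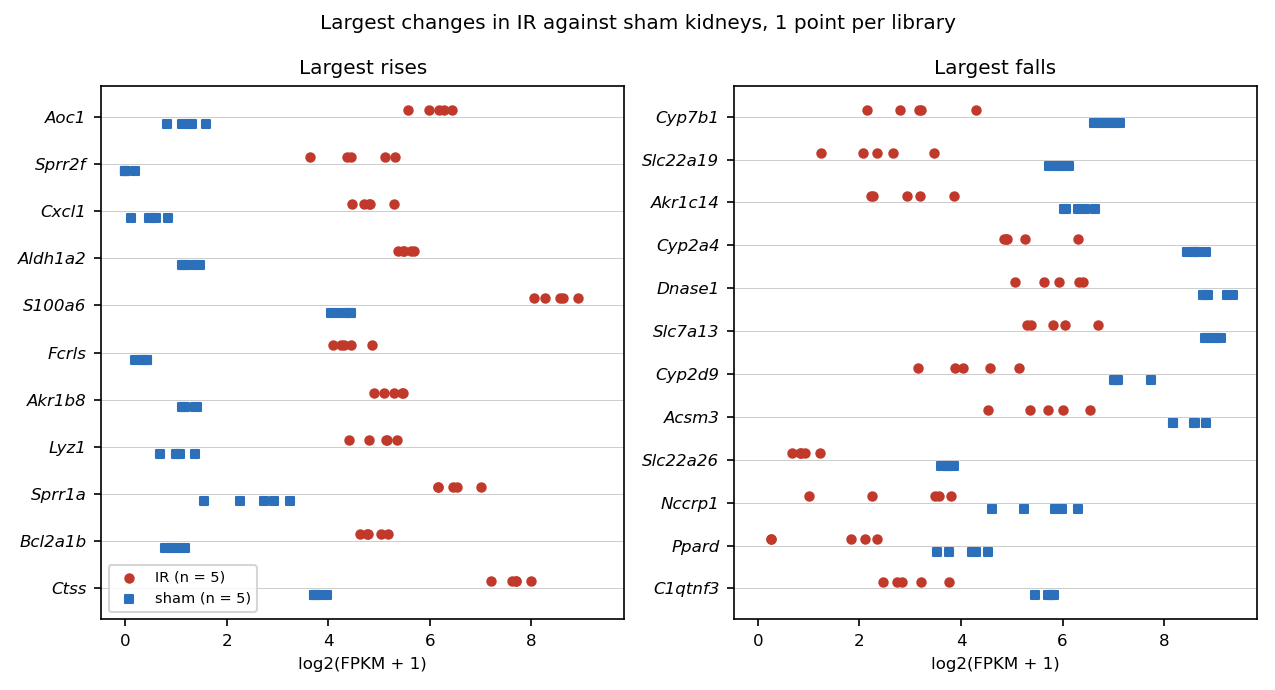
Each point is 1 library on the log2(FPKM + 1) scale. IR libraries are circles above the line of a gene and sham libraries are squares below it. The genes are 11 of the largest rises (left) and the 12 largest falls (right) outside the best-known markers. The groups do not overlap in any of the 23 genes, which the naming rule required, and the IR points are spread more widely among the falls.

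Factors of the authors' deposited table were ranked outside the best-known markers and with a mean of at least 5 FPKM in the higher group. The 4 largest called rises under this rule were Spi1, Relb, Junb and Foxj1. Spi1, the myeloid lineage factor PU.1, was at 37.8 ± 5.74 FPKM in IR against 4.4 ± 0.536 FPKM in sham, and Relb, a subunit of NF-kB, at 28.5 ± 3.96 FPKM in IR against 3.25 ± 0.562 FPKM in sham. Junb, a subunit of AP-1, was at 122 ± 22.7 FPKM in IR against 17.1 ± 3.23 FPKM in sham. The 4 log2 differences ran from 2.76 to 2.84, with limma adjusted p of 8.4e-09 or lower. Foxj1, which directs the making of motile cilia, was at 8.22, 10.3, 7.13, 5.1 and 8.29 FPKM in the IR libraries, against 0.34, 0.26, 0.18, 0.42 and 0.18 FPKM in the sham libraries, low in level and without overlap. The 4 largest falls by the same rule were Ppard, Esrrb, Klf15 and Lhx1. Esrrb, an orphan nuclear receptor, was at 3.35 ± 1.1 FPKM in IR against 13.1 ± 2.34 FPKM in sham (log2 difference -1.72). Klf15, a zinc finger factor of amino acid and glucose metabolism, was at 22.7 ± 5 FPKM in IR against 58.7 ± 7.47 FPKM in sham (-1.35), and Lhx1, a homeobox factor of the early nephron, at 3.98 ± 1 FPKM in IR against 9.09 ± 0.327 FPKM in sham (-1.04).

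Of 666 tested factors 424 (63.7%) were higher and 59 lower, against 57% higher of all entries, with a median of 0.36, and the counts were 284 and 128 with median-ratio scaling. By family, all 8 interferon regulatory factors counted from that table, without Irf7, were higher (median 1.11). So were 8 of 9 factors with the Rel domain of NF-kB and NFAT (median 1.29, 0 lower, and 8 and 1 with median-ratio scaling). Of 38 bZIP factors, the family of AP-1, 29 were higher (median 0.72, 2 lower, and 25 and 9 with median-ratio scaling). The family of nuclear receptors like the thyroid hormone receptor ran the other way, with 6 higher and 9 lower of 18 and a median of -0.40 (3 and 10 with median-ratio scaling). None of these 4 family medians changed sign with median-ratio scaling (0.90, 1.02, 0.53 and -0.66).

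The list of 38 tested nephron factors had 9 members higher, 16 lower and 13 not called (5 and 22 with median-ratio scaling), with a median of -0.08, or 0.37 below the median of all entries, and -0.32 with median-ratio or quantile scaling. Hnf4a was at 113, 123, 156, 165 and 145 FPKM in the IR libraries, against 234, 209.7, 197, 202 and 219 FPKM in the sham libraries. It fell without overlap, with a log2 difference of -0.61 (limma adjusted p = 0.000195). Ppara, the fatty acid receptor, was at 8.3 ± 1.81 FPKM in IR against 17.7 ± 1.29 FPKM in sham, and Nr1h4, the bile acid receptor, at 36.9 ± 10.6 FPKM in IR against 57.1 ± 11.8 FPKM in sham. Factors that are active when the nephron forms went both ways. Pax8 (76.5 ± 6.66 FPKM in IR against 36.8 ± 2.26 FPKM in sham) and Pax2 (18.4 ± 1.76 FPKM in IR against 12.5 ± 1.34 FPKM in sham) were among the 9 that rose. Lhx1, given above, was among the 16 lower members (log2 difference -1.04). Elf3, an epithelial ETS factor, rose the most in the list, at 50.1, 48.3, 45.2, 42.5 and 39.6 FPKM in the IR libraries, against 11.4, 12.6, 14.4, 12.9 and 12.5 FPKM in the sham libraries, with limma adjusted p = 1.29e-09.

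The list of factors known from mesenchyme, the embryonic kidney and epithelial plasticity had 38 of 50 tested members higher, 3 lower and 9 not called (35 and 7 with median-ratio scaling), with a median of 0.90, and 0.71 with median-ratio scaling. Sox4, a factor of progenitor cells, was at 48.4 ± 9.28 FPKM in IR against 8.79 ± 2.17 FPKM in sham (2.34 on the log2 scale), and Runx1, known from blood and from injured epithelia, at 5.71 ± 0.861 FPKM in IR against 0.292 ± 0.0798 FPKM in sham (2.37). Egr2 (2.41), Egr1 (2.30) and Foxm1 (1.90) were also higher. Osr1, Etv1 and Sall3 were the 3 lower members, at -0.36, -0.59 and -0.66. The sums of pericyte and Schwann cell markers given above were higher as well, and their part in this list, in the actin list and in the guidance list was not tested.

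Short letter patterns bound by these factors were searched in RefSeq promoter windows of assembly GRCm38.p6, 250 bases before to 50 after each gene's start, on both strands. A single window was found for 8384 tested entries, 1160 of them at least 2-fold higher, 322 at least 2-fold lower and 6902 others. The HNF4 motif CAAAGTCCA was in 1.55% of lower (5 of 322), 0.69% of higher and 0.362% of other entries, and in 0.475% of all windows. The 95% exact binomial interval of the lower entries, 0.506% to 3.59%, covers counting error alone. The AP-1 motif TGANTCA was in 8.28% of higher, 7.45% of lower and 3.97% of other entries, above that of other entries in both directions of change, and in 7.81% of all windows. The interferon response motif GAAANNGAA was in 11.6% of higher, 4.97% of lower and 6.61% of other entries (8.56% of all windows). For NF-Y (CCAAT) the shares were 37%, 45.7% and 39.1% (37.4% of all windows), for the E-box CACGTG 6.81%, 8.07% and 10.8% (7.15%), and for TEAD (GGAATG) 12.8%, 15.2% and 11.5% (14.7%), each in the same order. The E2F motif TTTGGCGC was in 1.29% of higher entries, 0 of 322 lower entries (exact interval up to 1.14%) and 0.956% of others (0.514% of all windows). No overlap between the motifs was removed. These shares are descriptions without a test, and a match says only that the letters stand in the window.

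**Figure D2:**
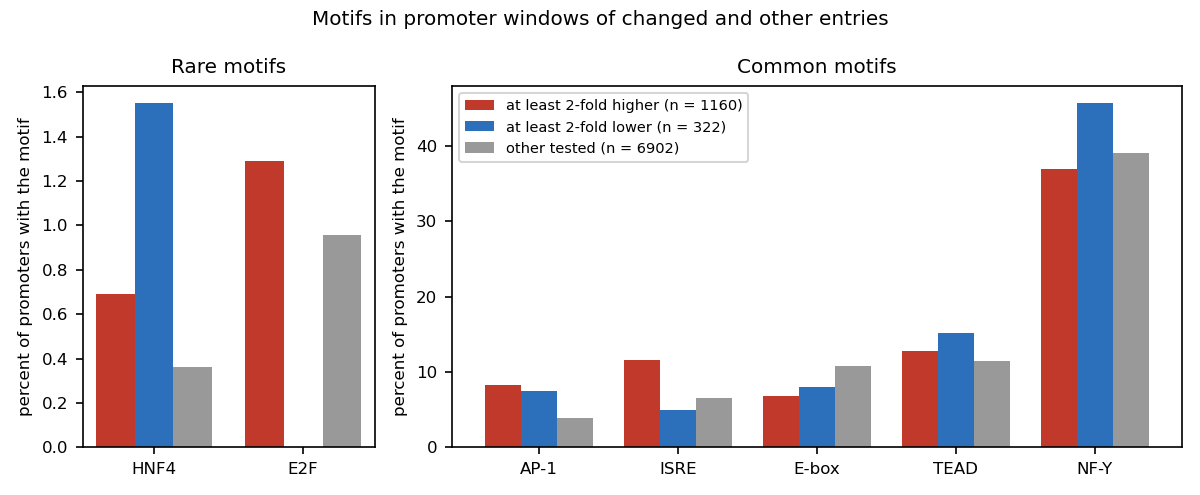
Bars give the percent of promoter windows that hold a motif, for entries at least 2-fold higher in IR, at least 2-fold lower in IR and other tested entries, with rare motifs on the left and common ones on the right. The HNF4 bar is tallest for lower entries (1.55%), and the interferon motif (ISRE) bar for higher entries (11.6%).

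Of the 5 lower holders of the HNF4 motif, 4 had a sham mean above 10 FPKM, and their stretches are shown because this motif had a larger share in lower entries than in the others. Letters are RefSeq's (GRCm38.p6), 5′ to 3′ on the strand of the gene, with the motif in capitals. Positions are counted back from the start, with -1 for the base just before it.
Aspdh (chr7:44465368-44465406, plus strand): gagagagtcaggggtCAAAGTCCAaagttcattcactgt
Aadat (chr8:60506037-60506075, plus strand): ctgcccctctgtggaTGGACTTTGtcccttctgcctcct
Treh (chr9:44673147-44673185, plus strand): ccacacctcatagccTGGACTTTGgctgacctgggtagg
Slc3a1 (chr17:85028293-85028331, plus strand): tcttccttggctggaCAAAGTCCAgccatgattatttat
Aadat, a kynurenine and aminoadipate transaminase gene, was at 64.2 ± 20.5 FPKM in IR against 154 ± 15.3 FPKM in sham. Slc3a1, the heavy subunit of the cystine transporter, was at 149 ± 21.1 FPKM in IR against 302 ± 15.4 FPKM in sham. Treh, the brush border enzyme trehalase, was at 33.6 ± 5.33 FPKM in IR against 77.8 ± 4.63 FPKM in sham, and Aspdh at 29.4 ± 7.29 FPKM in IR against 95.1 ± 5.75 FPKM in sham. Their log2 differences were -1.31, -1.03, -1.20 and -1.69, all beyond -1 because only entries at least 2-fold lower were picked. The motif began between positions -72 and -39 in each. It also stood in 8 of 1160 higher entries (median log2 difference 1.78), which are not shown.

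The AP-1 motif is shown for 4 genes that rose, and the interferon motif, in 3 overlapping or neighbouring copies, for 2 genes known as interferon targets. Matches to both motifs were also found in other named genes, among them lower ones.
Sprr1a (chr3:92485976-92486042, minus strand): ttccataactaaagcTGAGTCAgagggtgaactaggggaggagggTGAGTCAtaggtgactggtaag
Sprr2f (chr3:92364975-92365011, plus strand): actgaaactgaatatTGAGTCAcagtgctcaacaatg
F3 (chr3:121723376-121723423, plus strand): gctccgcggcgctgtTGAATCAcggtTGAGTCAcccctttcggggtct
Bcl2a1b (chr9:89199094-89199130, plus strand): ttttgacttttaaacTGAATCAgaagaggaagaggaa
Isg15 (chr4:156200861-156200911, minus strand): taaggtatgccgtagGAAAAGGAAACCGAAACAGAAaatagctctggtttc
Ifit1 (chr19:34640765-34640828, plus strand): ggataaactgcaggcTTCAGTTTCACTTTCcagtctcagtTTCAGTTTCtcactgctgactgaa
Capitals mark TGANTCA in the first 4 and GAAANNGAA or its reverse complement in the last 2. F3, tissue factor, the starter of clotting, has 2 neighbouring copies and was at 46.2, 41.3, 41.4, 37.6 and 33.2 FPKM in the IR libraries, against 8.79, 9.87, 7.89, 8.65 and 9.48 FPKM in the sham libraries, a log2 difference of 2.04 (limma adjusted p = 3.76e-10). Sprr1a also has 2 copies.

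Most actin and tubulin genes were higher. Of 56 tested genes of the actin cytoskeleton 52 were higher, 2 lower and 2 not called (49 and 4 with median-ratio scaling), with a median of 0.97 (0.70 with median-ratio scaling), 0.68 above that of all entries. Tpm4, a tropomyosin that stabilises actin filaments, was at 189, 215, 202, 175 and 169 FPKM in the IR libraries, against 30.6, 32.7, 28.9, 33.5 and 30.6 FPKM in the sham libraries. The groups were far apart and did not overlap (log2 difference 2.56, SE 0.133, limma adjusted p = 8.06e-11). The largest rises of the list were those of Tmsb10, which binds actin monomers (191 ± 39 FPKM in IR against 19.2 ± 2.12 FPKM in sham), and Capg, which caps filament ends (139 ± 17.4 FPKM in IR against 14.8 ± 2.87 FPKM in sham). The 2 lower members were motors of polarised epithelium, Myo6 at 36.7 ± 3.08 FPKM in IR against 47.6 ± 1.99 FPKM in sham and Myh14 at 7.85 ± 1.4 FPKM in IR against 13.8 ± 1.72 FPKM in sham. The brush border bundling protein gene Vil1 (log2 difference -0.16) and the membrane linker gene Rdx (-0.11) were not called, and were lower with median-ratio scaling.

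Of 15 tested tubulins, 12 were higher and 1 lower (11 and 2 with median-ratio scaling), with a median of 1.15. Tubb2b was at 74, 70.5, 61.8, 57.1 and 55 FPKM in the IR libraries, against 9.06, 10.9, 8.09, 8.64 and 8.41 FPKM in the sham libraries, a log2 difference of 2.69, and Tubb5 was at 144 ± 21 FPKM in IR against 23.9 ± 0.909 FPKM in sham. Tuba4a was the lower member, at 60 ± 3.07 FPKM in IR against 87.6 ± 3.47 FPKM in sham (-0.54). Tubulin genes are similar in sequence and can share reads, so single levels are uncertain. Primary cilium genes had a median near that of all entries, with 29 of 50 (58%) higher, 2 lower (Ift122 and Pkd2) and a median of 0.24 that was -0.11 with quantile scaling. With median-ratio scaling 18 were higher and 11 lower. Kif3a, a motor of ciliary transport, was at 6.93 ± 0.493 FPKM in IR against 4 ± 0.272 FPKM in sham, and Ift122, a subunit of the retrograde transport complex, at 13.2 ± 1.37 FPKM in IR against 19.3 ± 1.29 FPKM in sham.

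In the list of cell junctions and polarity 26 of 37 tested members were higher and 4 lower (21 and 10 with median-ratio scaling), with a median of 0.51 (0.27 with median-ratio scaling). The rises were led by cadherins other than the main epithelial ones. Cdh11, a cadherin of mesenchyme, was at 12.7, 15, 12.6, 15.4 and 15.5 FPKM in the IR libraries, against 2.07, 1.59, 1.33, 1.87 and 1.26 FPKM in the sham libraries, a log2 difference of 2.54 (limma adjusted p = 3.52e-10). Cdh3 (2.39) and Cdh6 (2.13), a cadherin of the forming proximal tubule, followed, against 0.24 for the epithelial cadherin Cdh1, which was not called higher with median-ratio scaling. The lower members included the gap junction genes Gjb1 (15.9 ± 3.52 FPKM in IR against 33.2 ± 3.28 FPKM in sham) and Gjb2 (-1.06 on the log2 scale), while Gja1, another gap junction gene, was higher (1.28).

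**Figure D3:**
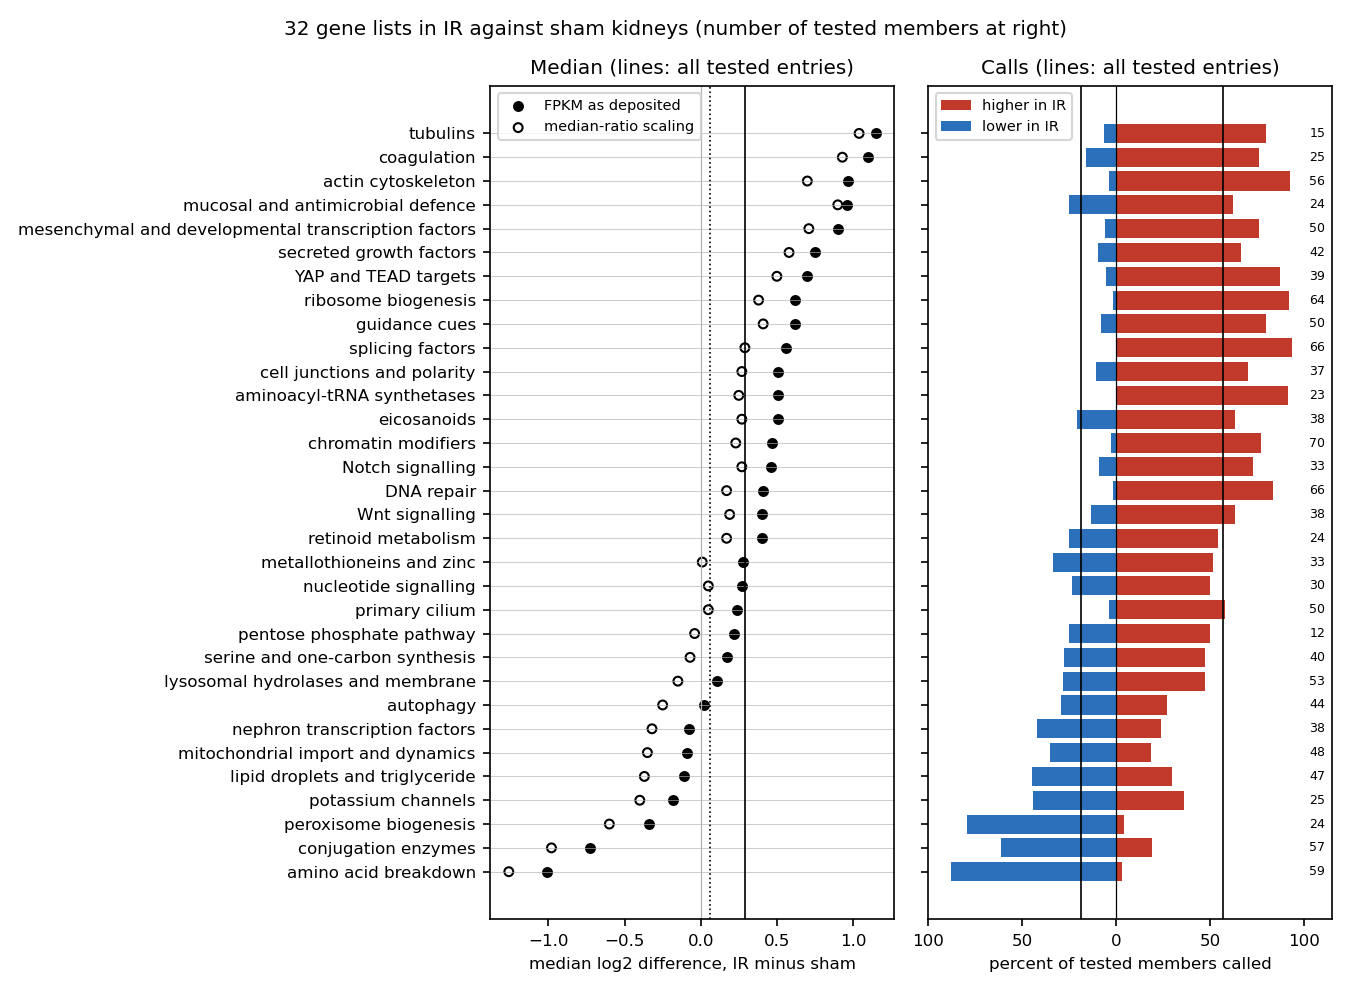
For each of 32 gene lists, the left panel gives the median log2 difference (IR minus sham) with FPKM as deposited (filled) and after median-ratio scaling (open), and the right panel the percent of tested members called higher in IR (right of 0) and lower in IR (left of 0). Lines mark the values over all tested entries (medians 0.29 solid and 0.06 dotted, 57% higher and 18.6% lower), and the number of tested members stands at the right edge. With both scalings amino acid breakdown, conjugation and peroxisome lists lie lowest and tubulins and coagulation highest.

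Lists of signals between cells differed in how far they stood from all entries, of which 57% were higher. The share of higher members was 63.2% for Wnt, 66.7% for growth factors, 72.7% for Notch, 80% for guidance and 87.2% for YAP and TEAD. Of 42 secreted growth factors 28 were higher and 4 lower, with a median of 0.75. With median-ratio scaling 24 were higher and 11 lower, with a median of 0.58. Clcf1, a cytokine of the interleukin 6 family, was at 42.1, 36.1, 36.1, 28.2 and 24.2 FPKM in the IR libraries, against 2.24, 2.66, 2.83, 2.11 and 2.44 FPKM in the sham libraries. The groups did not overlap, and the log2 difference was 3.29 (limma adjusted p = 1.17e-09). Other ligands of the same cytokine family rose, Lif at 6.69 ± 1.8 FPKM in IR against 0.174 ± 0.0662 FPKM in sham and Il11 at 3.64 ± 1.65 FPKM in IR against 0.184 ± 0.128 FPKM in sham. Csf1, the macrophage growth factor, was at 28.4 ± 4.93 FPKM in IR against 3.29 ± 0.363 FPKM in sham, and Edn1, the vasoconstrictor endothelin, at 12.5 ± 1.51 FPKM in IR against 1.23 ± 0.32 FPKM in sham. The lower members were Fgf1 (35.6 ± 7.16 FPKM in IR against 67.4 ± 6.69 FPKM in sham), Fgf9 (-0.97 on the log2 scale), Nrtn (-1.03) and Nrg4 (-0.36).

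Of 38 Wnt genes 24 were higher and 5 lower (18 and 10 with median-ratio scaling), with a median of 0.40, 0.19 with median-ratio and 0.02 with quantile scaling. Wnt4, a ligand of nephron formation, was at 8.32, 9.61, 11.9, 8.93 and 10.3 FPKM in the IR libraries, against 0.38, 1.03, 1.19, 1.12 and 0.78 FPKM in the sham libraries. No IR library came near the sham libraries, and the log2 difference was 2.52 (limma adjusted p = 4.62e-10). Wnt10a (2.04), Wnt7b (1.36) and the feedback inhibitors Nkd2 (2.29) and Nkd1 (1.84) also rose. Notum, an enzyme that inactivates Wnt ligands, was lower, at 3.45, 3.75, 5, 5.91 and 7.01 FPKM in the IR libraries, against 16.9, 16.9, 18.6, 18.5 and 14.4 FPKM in the sham libraries (log2 difference -1.62, limma adjusted p = 7.03e-06), and so was the target gene Sp5 (-0.75).

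In the Notch list 24 of 33 were higher and 3 lower, with a median of 0.46 that was 0.03 with quantile scaling (18 and 6 with median-ratio scaling). Heyl, a Notch target, was at 6.24 ± 0.653 FPKM in IR against 1.09 ± 0.147 FPKM in sham, the ligand gene Jag1 rose by 1.35 on the log2 scale and the ligand gene Dll4 (0.14) was not called. Rfng, which modifies Notch receptors with sugar, was lower at 20.4 ± 1.63 FPKM in IR against 26.1 ± 2.64 FPKM in sham, with overlapping groups (limma adjusted p = 0.00124). Genes known as targets of YAP and TEAD or as Hippo pathway members were higher in 34 of 39 cases and lower in 2 (median 0.70, 27 and 4 with median-ratio scaling). Myof, which encodes the membrane repair protein myoferlin, was at 36.5, 39.2, 38.2, 38.8 and 36.1 FPKM in the IR libraries, against 2.79, 4.79, 4.81, 4.1 and 3.55 FPKM in the sham libraries. The log2 difference was 2.97 (limma adjusted p = 1.48e-10), with no overlap. Ankrd1, a YAP target, was at 27 ± 6.91 FPKM in IR against 1.37 ± 0.319 FPKM in sham. Igfbp3 was lower, at 62 ± 5.43 FPKM in IR against 112 ± 16.3 FPKM in sham, as was Nf2 (-0.14 on the log2 scale), which restrains YAP.

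Of 50 genes for guidance cues and their receptors 40 were higher and 4 lower (32 and 6 with median-ratio scaling), with a median of 0.62. Plxna1, a receptor for semaphorins, was at 13.4, 13.8, 14.9, 13.3 and 12.7 FPKM in the IR libraries, against 5.61, 5.56, 6.17, 5.79 and 5.38 FPKM in the sham libraries, a small but tight change (1.13, limma adjusted p = 1.53e-09). Epha2 was at 12.5 ± 2.43 FPKM in IR against 2.3 ± 0.436 FPKM in sham. The lower members were Sema4g (-1.07), Sema3g (-0.56), Ntn1 (17.1 ± 0.833 FPKM in IR against 25.2 ± 1.09 FPKM in sham) and Slit2 (-0.45).

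Retinoid genes moved in both directions, in shares close to those of all entries. Of 24 tested retinoid genes 13 (54.2%) were higher and 6 (25%) lower, against 57% and 18.6% of all entries. The median was 0.40, and -0.10 with quantile scaling. Aldh1a2 rose the most, and Stra6, a receptor for retinol uptake, was at 12.3 ± 2.6 FPKM in IR against 0.704 ± 0.162 FPKM in sham (2.95 on the log2 scale). Among alcohol and retinol dehydrogenases, Adh1 was lower at 267 ± 24.3 FPKM in IR against 509.8 ± 56.9 FPKM in sham, Rdh5 (-1.75) and Rdh16 (-1.68) were lower and Rdh11 (1.13) was higher. Rdh10 (0.45) was higher in limma but not with median-ratio scaling.

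Amino acid breakdown had the lowest median of the 32 lists. Of 59 tested enzymes 52 (88.1%) were lower, against 18.6% of all entries, 2 were higher and 5 not called. The median was -1.01 (-1.26 with median-ratio and -1.08 with quantile scaling). In 52 enzymes the IR libraries lay below the sham libraries without overlap. Over all tested entries, 2064 (15.2%) lay lower without overlap and 2529 were called lower. Ahcy, which hydrolyses S-adenosylhomocysteine in the methionine cycle, was at 73, 68.4, 80.1, 87.4 and 97.4 FPKM in the IR libraries, against 254, 240.3, 268, 253 and 252 FPKM in the sham libraries. No IR library came near the sham level (log2 difference -1.64, SE 0.158, limma adjusted p = 5.73e-08). The largest fall was that of Hpd, of tyrosine breakdown (2.77 ± 1.46 FPKM in IR against 38.4 ± 6.31 FPKM in sham, -3.46). The fall included the enzymes of branched-chain (Ivd, -1.57), glycine (Gldc, -1.25), choline-derived (Dmgdh, -2.21), lysine (Aass, -1.89) and tryptophan breakdown (Haao, -1.79). Bhmt2 was lower as well (-2.24). The 2 higher members were Kynu, which cleaves kynurenine (0.63), and Gpt2, a mitochondrial alanine transaminase (20.4 ± 2.99 FPKM in IR against 13.3 ± 0.896 FPKM in sham, limma adjusted p = 0.00527), which was not called with median-ratio scaling.

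Synthesis of serine, folate units, nucleotides and proline was mixed, with 19 of 40 (47.5%) higher and 11 (27.5%) lower, against 57% and 18.6% of all entries. With median-ratio scaling 14 were higher and 18 lower. The median was 0.17, and -0.07 with median-ratio and -0.13 with quantile scaling. Phgdh, the first enzyme of serine synthesis, was at 51.2 ± 9.34 FPKM in IR against 9.87 ± 1.51 FPKM in sham. Aldh18a1, of proline synthesis, was at 7.33, 7.21, 8.54, 7.59 and 6.44 FPKM in the IR libraries, against 0.98, 1.08, 1.34, 1.06 and 1.48 FPKM in the sham libraries. Every IR library was above every sham library (log2 difference 1.95, limma adjusted p = 9.41e-10). Asns, which makes asparagine (1.95), and Ctps, which makes CTP (1.87), were higher too. In the folate cycle, the mitochondrial enzymes Mthfd2 (1.69) and Mthfd1l (1.56) rose, while the cytosolic Mthfd1 (46.3 ± 7.9 FPKM in IR against 96.8 ± 3.91 FPKM in sham, -1.06), Aldh1l1 (-1.32) and the mitochondrial Shmt2 (-1.31) fell. In the pentose phosphate pathway 6 of 12 (50%) were higher and 3 (25%) lower with a median of 0.22, and 3 higher and 6 lower with a median of -0.04 with median-ratio scaling. G6pdx, the entry enzyme, was at 25.4 ± 2.28 FPKM in IR against 15.8 ± 0.418 FPKM in sham, and Shpk, which makes sedoheptulose phosphate, at 5.18 ± 1.08 FPKM in IR against 9.18 ± 0.58 FPKM in sham.

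Conjugation enzymes, which attach glucuronic acid, sulfate, glutathione, glycine or methyl groups to drugs and hormones, were listed together with hydrolases such as Ephx1. Of the 57 tested, 35 (61.4%) were lower and 11 (19.3%) higher, against 18.6% and 57% of all entries. The median was -0.73 (-0.98 with median-ratio scaling). Acsm1, which prepares acids for glycine conjugation, was at 23.5, 22.7, 21.5, 24.4 and 31.1 FPKM in the IR libraries, against 95.7, 79.7, 69.9, 79.5 and 87.7 FPKM in the sham libraries (log2 difference -1.71, limma adjusted p = 7.21e-09). Inmt, a methyltransferase gene, was at 121 ± 33.2 FPKM in IR against 765 ± 65.4 FPKM in sham, and Ugt3a1 at 28.4 ± 10.5 FPKM in IR against 171 ± 11.1 FPKM in sham. The higher members included Ephx1, microsomal epoxide hydrolase (61.3, 77.8, 59.3, 64.2 and 57.7 FPKM in the IR libraries, against 22.5, 25.6, 30.7, 26 and 25 FPKM in the sham libraries), Sult2b1 (1.31) and Gsta1 (1.11). Several Ugt, Gst, Sult and Ces genes have near-identical copies, so single levels in this list are uncertain.

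**Figure D4:**
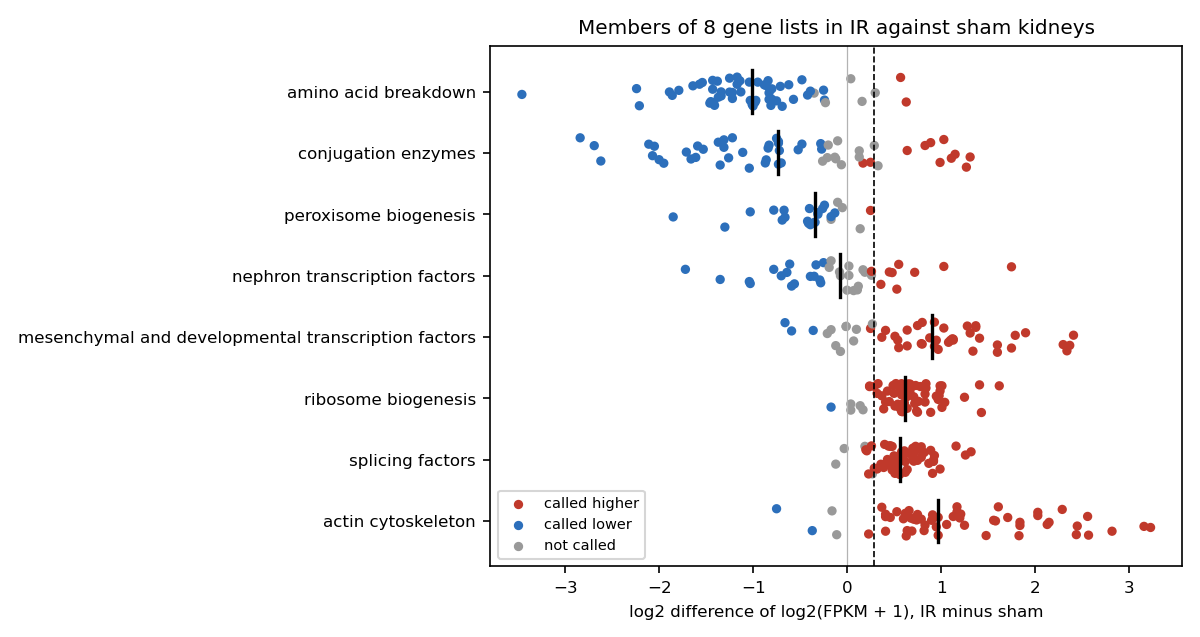
Each point is 1 tested gene of 8 lists, placed by its log2 difference (IR minus sham) and coloured by its call, with the list median as a vertical bar and the median of all tested entries (0.29) as a dashed line. Points of amino acid breakdown lie almost all left of 0 (52 of 59 called lower), and those of the splicing, ribosome and actin lists almost all right of it.

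Peroxisome biogenesis genes were lower in 19 of 24 cases (79.2%) and higher in 1, against 18.6% and 57% of all entries. With median-ratio scaling 22 were lower and 0 higher, against 31.2% and 39% of all entries. The median was -0.34, and -0.60 with median-ratio scaling. Pxmp4, a peroxisomal membrane protein gene, was at 63.9 ± 7.11 FPKM in IR against 103 ± 3.75 FPKM in sham, and Mpv17l at 54.7 ± 17.6 FPKM in IR against 193 ± 17 FPKM in sham. Genes of lipid droplets and triglyceride were divided, with 14 of 47 (29.8%) higher and 21 (44.7%) lower, against 57% and 18.6% of all entries. With median-ratio scaling 7 were higher and 27 lower. The median was -0.11. Plin2 (1.35 on the log2 scale) and Hilpda (1.06), which coat droplets or hold back lipolysis, rose, as did Srebf1, a factor of fatty acid synthesis (28.7 ± 1.87 FPKM in IR against 14.7 ± 1.51 FPKM in sham). Enzymes that add or release fatty acids fell, among them Gpam (13 ± 2.28 FPKM in IR against 28.5 ± 2.42 FPKM in sham), Dgat2 (-1.18) and Lpl, lipoprotein lipase (47.8 ± 12.6 FPKM in IR against 274 ± 43.6 FPKM in sham).

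Metallothionein, zinc and copper genes were divided as well, with 17 of 33 (51.5%) higher and 11 (33.3%) lower, against 57% and 18.6% of all entries. The median was 0.28, and -0.16 with quantile scaling. Slc39a1, which imports zinc, was at 73.4, 76.1, 72.9, 71.2 and 69.5 FPKM in the IR libraries, against 35.9, 34.5, 37.1, 32.9 and 33.7 FPKM in the sham libraries, without overlap (log2 difference 1.04, limma adjusted p = 1.03e-08). Slc30a2, which exports zinc from the cytosol into vesicles, was at 7.83, 5.76, 8.06, 9.5 and 11 FPKM in the IR libraries, against 26.7, 24, 25.6, 24.1 and 29.7 FPKM in the sham libraries (-1.54, limma adjusted p = 1.52e-08). Steap1, of a family of metal reductases, was at 23.2 ± 4 FPKM in IR against 2.95 ± 0.583 FPKM in sham, and Mt2 rose by 1.73.

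Most genes that make and process RNA were higher, by small steps. Of 64 ribosome biogenesis genes 59 were higher and 1 lower (52 and 3 with median-ratio scaling), with a median of 0.62 (0.38 with median-ratio and 0.29 with quantile scaling) and a range of -0.17 to 1.62. Nop56, a protein of the box C/D ribonucleoproteins that modify ribosomal RNA, was at 31.8, 34.1, 40.1, 27.4 and 27.3 FPKM in the IR libraries, against 12.7, 10.1, 10.4, 13.1 and 10.6 FPKM in the sham libraries, a log2 difference of 1.41 (limma adjusted p = 1.32e-08). Utp20 was the lower member, at 5.9 ± 0.186 FPKM in IR against 6.76 ± 0.601 FPKM in sham, with overlapping groups and an adjusted p of 0.037 that was above 0.05 when any of 7 libraries was left out (up to 0.0862), with TPM scaling (0.115) and with a replicate block (0.0701). Of 23 aminoacyl-tRNA synthetase genes 21 were higher and 0 lower in limma (median 0.51). With median-ratio scaling 13 were higher and 2 lower, Dars (-0.32) and Farsb (-0.37), which were not called in FPKM as deposited. Gars, for glycine, was higher with both scalings, at 48.8 ± 2 FPKM in IR against 31.9 ± 0.96 FPKM in sham. Of 66 splicing factors 62 were higher and 0 lower in limma (median 0.56), and 2 were lower with median-ratio scaling. Rbfox2, which sets alternative exons, was at 8.29, 8.79, 7.98, 7.65 and 7.28 FPKM in the IR libraries, against 2.58, 3.05, 3.35, 3.47 and 2.73 FPKM in the sham libraries (1.16, limma adjusted p = 1.36e-08), while the epithelial splicing regulators Esrp1 (0.27) and Esrp2 (-0.12) were not called.

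Chromatin modifiers were higher in 54 of 70 cases and lower in 2, with a median of 0.47. With median-ratio scaling 39 were higher and 12 lower, with a median of 0.23. Uhrf1, which recruits the maintenance DNA methyltransferase, was at 10.1, 11.4, 10.8, 8.99 and 8.42 FPKM in the IR libraries, against 0.33, 0.39, 0.42, 0.4 and 0.58 FPKM in the sham libraries, a log2 difference of 2.94 (limma adjusted p = 1.09e-09). The lower members were Smarca2, a remodelling ATPase (35.1, 32.3, 31.9, 34.5 and 35.7 FPKM in the IR libraries, against 63.5, 63.5, 61.9, 81 and 69.1 FPKM in the sham libraries, -0.97), and Ezh1 (-0.19), while their paralogs Smarca4 (0.54) and Ezh2 (1.44) were higher. Of 66 DNA repair genes 55 were higher and 1 lower (31 and 5 with median-ratio scaling), with a median of 0.41 that was -0.02 with quantile scaling. Apex1, the abasic site nuclease, was at 47.1 ± 5.5 FPKM in IR against 16.1 ± 1.35 FPKM in sham. Lig1, a DNA ligase of replication, was at 9.93 ± 0.703 FPKM in IR against 1.82 ± 0.0814 FPKM in sham. Xpc, which detects bulky lesions, was the lower member, at 14.8 ± 0.905 FPKM in IR against 16.5 ± 0.937 FPKM in sham, with overlapping groups and an adjusted p of 0.0179 in limma that was 0.0594 without IR replicate 3, 0.0535 without sham replicate 3, 0.076 with TPM scaling and 0.0802 with a replicate block.

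Lists of organelle turnover had medians below the 0.29 of all entries, by 0.18 for lysosomes, 0.27 for autophagy and 0.38 for mitochondrial import and dynamics, and their split into higher and lower members depended on the scaling. Of 53 lysosomal genes 25 were higher and 15 lower (15 and 26 with median-ratio scaling), with a median of 0.11 that was -0.15 with median-ratio and -0.06 with quantile scaling. Pla2g15, a lysosomal phospholipase, rose the most (17.6 ± 1.42 FPKM in IR against 5.03 ± 0.689 FPKM in sham). Of 44 autophagy genes 12 were higher and 13 lower (2 and 29 with median-ratio scaling), with a median of 0.02 that was below 0 with median-ratio (-0.25) and quantile scaling (-0.29) and without sham replicate 3 (-0.01). Vmp1, which acts early in autophagosome formation, was at 88.7 ± 8.21 FPKM in IR against 44.7 ± 1.8 FPKM in sham. Gabarapl1, a protein of the autophagosome membrane, was at 314, 261, 264, 315 and 358 FPKM in the IR libraries, against 651, 656, 703, 653 and 635 FPKM in the sham libraries (-1.13, limma adjusted p = 2.96e-09). Pink1, which marks damaged mitochondria, was at 105 ± 11 FPKM in IR against 222 ± 10.7 FPKM in sham. Of 48 genes of mitochondrial import and dynamics 9 were higher and 17 lower, with a median of -0.09. With median-ratio scaling 1 was higher and 35 lower, with a median of -0.35. Mfn2, a fusion protein of the outer membrane, was lower, at 29.4 ± 2.75 FPKM in IR against 44.5 ± 2.81 FPKM in sham, and Tomm34 was higher, at 19.2 ± 1.19 FPKM in IR against 12.4 ± 1.17 FPKM in sham.

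Lists of lipid mediators, nucleotide signals and clotting held large changes in both directions. In the eicosanoid list 24 of 38 (63.2%) were higher and 8 lower (median 0.51, 19 and 12 with median-ratio scaling). Alox5ap, which feeds arachidonic acid to leukotriene synthesis, was at 37.5, 37.7, 41, 29.2 and 27.9 FPKM in the IR libraries, against 3.49, 5.77, 4.38, 4.33 and 4.49 FPKM in the sham libraries (log2 difference 2.70, limma adjusted p = 6.81e-09), with no overlap. Anxa1, which encodes the anti-inflammatory protein annexin A1, was at 38 ± 6.16 FPKM in IR against 7.35 ± 1.88 FPKM in sham. Ephx2, which degrades epoxyeicosatrienoic acids, was lower at 80.8, 74.8, 92.2, 97.7 and 106 FPKM in the IR libraries, against 237, 216, 238, 222 and 254 FPKM in the sham libraries (-1.37, limma adjusted p = 9.55e-07). The near-identical genes Cyp4a12a (-1.03) and Cyp4a12b (1.77) moved in opposite directions and are uncertain.

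Among genes for extracellular ATP and adenosine 15 of 30 (50%) were higher and 7 (23.3%) lower, close to the 57% and 18.6% of all entries. The median was 0.27, and -0.02 with quantile scaling. P2ry6, a receptor for UDP, was at 15.4, 15.5, 17.6, 12.2 and 15.5 FPKM in the IR libraries, against 2.33, 1.66, 1.49, 2.45 and 1.73 FPKM in the sham libraries (2.47, limma adjusted p = 6.01e-09). The ATP release channel gene Panx1 was at 6.8 ± 1.66 FPKM in IR against 0.672 ± 0.165 FPKM in sham. Adk, which removes adenosine, was lower, at 45.1 ± 3.83 FPKM in IR against 73.4 ± 3.49 FPKM in sham. Of 25 tested coagulation genes 19 were higher and 4 lower, with a median of 1.10. Fgg, a fibrinogen chain, was at 64.1 ± 9.44 FPKM in IR against 6.05 ± 0.973 FPKM in sham, and the fibrinogen chains Fgb (2.55 on the log2 scale) and Fga (1.19) rose as well. Pf4, a platelet factor, was at 11.8 ± 5.3 FPKM in IR against 0.534 ± 0.488 FPKM in sham. F13b, the carrier subunit of clotting factor XIII, was lower, at 10.4, 9.73, 14.7, 17.2 and 18.4 FPKM in the IR libraries, against 45.7, 45.7, 41.8, 42.8 and 47 FPKM in the sham libraries, with no overlap (log2 difference -1.64, limma adjusted p = 9.74e-07). The other 3 lower genes were Proc (-1.11), Kng2 (-0.91) and Itga2b (-0.60).

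Genes listed for mucosal and antimicrobial defence were higher in 15 of 24 cases, a share of 62.5% against 57% of all entries. They were lower in 6, with a median of 0.96 (0.90 with median-ratio scaling). The list is not limited to secreted proteins, and its higher member with the smallest adjusted p was the ETS factor gene Elf3, given above. Wfdc17 was at 25 ± 6.71 FPKM in IR against 1.91 ± 1.06 FPKM in sham and Muc1, a surface mucin, rose by 1.98 on the log2 scale. Wfdc15b was lower, at 53 ± 19.6 FPKM in IR against 297 ± 34.1 FPKM in sham. Pigr, which carries immunoglobulin A across epithelia, was at 20 ± 5.41 FPKM in IR against 55.8 ± 13.9 FPKM in sham, and Tcn2, a cobalamin carrier, at 425 ± 69.4 FPKM in IR against 904 ± 42.6 FPKM in sham, both lower. Of 25 tested potassium channel genes 9 (36%) were higher and 11 (44%) lower, against 57% and 18.6% of all entries (median -0.18). Kcnj15, a tubular inward rectifier, was at 69.1, 62.1, 75.2, 102 and 108 FPKM in the IR libraries, against 232, 208, 199, 194 and 229 FPKM in the sham libraries (-1.37, limma adjusted p = 7.38e-07), and Kcnj1, the secretory channel of the distal nephron, was lower as well (-1.06). Kcnn4, a calcium-activated channel known from leukocytes and fibroblasts, was at 4.01 ± 0.706 FPKM in IR against 0.534 ± 0.0351 FPKM in sham. Kcnk1 was higher, at 48.5 ± 4.15 FPKM in IR against 31.5 ± 5.34 FPKM in sham, but was not called with median-ratio scaling.

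IR libraries varied more than sham libraries in the genes that fell. Over 1943 lower entries with a mean of at least 10 FPKM in IR or sham, the median SD of log2(FPKM + 1) was 0.138 in IR and 0.090 in sham, and 1467 of them had the larger SD in IR. Over 4152 higher entries the medians were 0.109 in IR and 0.105 in sham, and over 1523 entries not called 0.099 and 0.096. Replicate 5 was the highest IR library in 325 of the 414 entries of this level that were at least 2-fold lower, with a median of 77.3% of the mean change, against 117% in replicate 2, 108% in replicate 1, 106% in replicate 3 and 90.5% in replicate 4. In the 1007 entries of the same level that were at least 2-fold higher, replicate 5 was the lowest IR library in 502 and had 91.9% of the mean change, and replicate 4 had 95.4%. Between 9920 and 10140 entries were called when any 1 of the 10 libraries was left out, and 10276 with all.

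The 6 genes with the largest spread in IR included 4 that interferon induces. Irf7, the factor that amplifies type I interferon, was at 219, 77.6, 175, 228 and 13.8 FPKM in the IR libraries, against 8.75, 8.37, 18, 9.18 and 11 FPKM in the sham libraries. Replicate 5 lay within the sham range and the other 4 IR libraries far above it. The log2 difference was 3.11 (limma adjusted p = 5.35e-05) with all libraries and 3.81 without IR replicate 5. Isg15, a ubiquitin-like antiviral protein gene, was at 119.9, 38.8, 89.9, 126 and 11 FPKM in the IR libraries, against 5.92, 5.53, 10.5, 8.19 and 4.85 FPKM in the sham libraries. Ifit1, which binds viral RNA, was at 26.5, 8.52, 23.2, 33.6 and 2.35 FPKM in the IR libraries, against 1.35, 1.69, 2.98, 2.03 and 1.89 FPKM in the sham libraries. Rtp4 was at 48.7, 19.7, 35.5, 45.7 and 6.36 FPKM in the IR libraries, against 4, 4.56, 5.78, 4.68 and 4.57 FPKM in the sham libraries. In all 4 genes replicate 5 was the lowest IR library, within or just above the sham values, and replicate 2 came next. Without replicate 5 the log2 differences were 3.48, 2.88 and 2.68 for Isg15, Ifit1 and Rtp4, against 2.91, 2.34 and 2.22 with all libraries.

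Calb1, which encodes the calcium-binding protein calbindin of the distal tubule, was at 31.7, 44.6, 8.86, 41.9 and 88.1 FPKM in the IR libraries, against 131, 151, 121, 130.2 and 146 FPKM in the sham libraries. IR replicate 3 was the lowest and replicate 5 the highest of the IR libraries, with all below sham (log2 difference -1.94, SE 0.598, limma adjusted p = 0.00681). Nccrp1 was the other of these 6 genes.

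**Figure D5:**
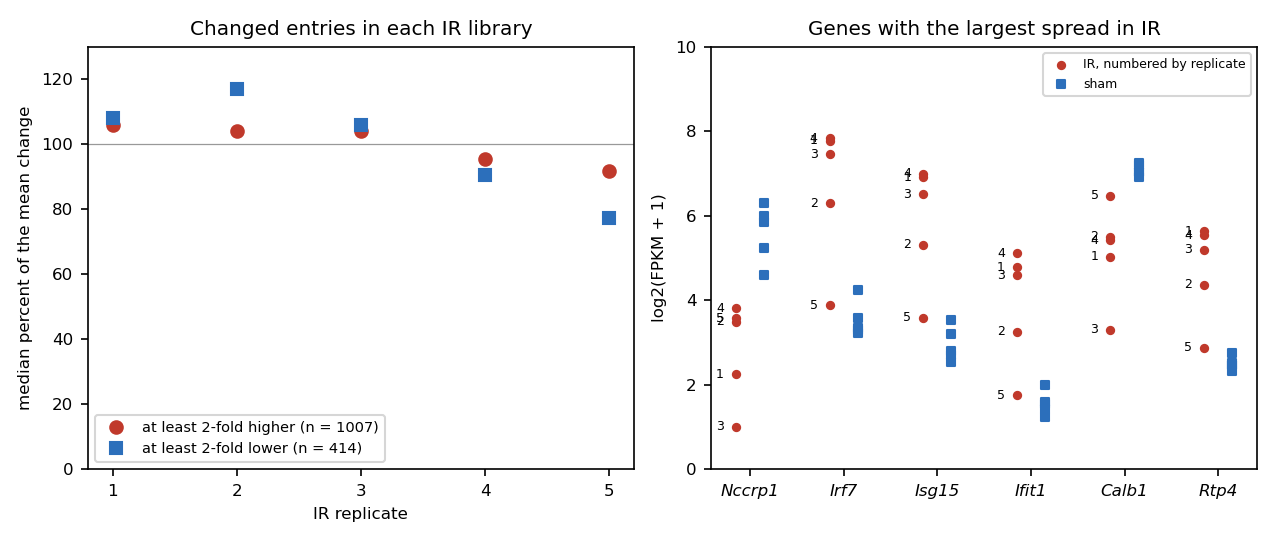
The left panel gives, for each IR replicate, the median over genes of its change from the sham mean as a percent of the mean change, for entries with a mean of at least 10 FPKM in IR or sham that were at least 2-fold higher (circles, n = 1007) and at least 2-fold lower (squares, n = 414). The right panel gives log2(FPKM + 1) of the 6 genes with the largest spread in IR, 1 point per library, IR (numbered by replicate) left of sham. Replicate 5 has the smallest change in both sets (91.9% and 77.3%) and lies near sham for Irf7, Isg15, Ifit1 and Rtp4.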

How the data were processed

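RNA-seq of mouse kidney was analysed from a table of gene expression. The deposited values are FPKM for each library, made with HISAT and StringTie 1.0.4 on mm9, per the submitters' processing notes, and no count of reads is given with them. A second deposited table gives, per gene, the percent identity to a transcription factor and its family, and entries of at least 95 percent were used for family names, per the file's columns. FPKM was transformed to log2(FPKM + 1), which understates the change of genes with low values, and tests covered the 13594 of 19287 entries that reached 1 FPKM in 4 or more of the 19 libraries. All 19 libraries entered 1 linear model in limma 3.58.1 (R 4.3.3), whose variances follow a trend with the mean. Adjustment over all tested entries was that of Benjamini and Hochberg, with calls at 0.05. The fit was also run on simulated data in which few genes changed, in equal numbers up and down. Most entries differed in the real data, so that run does not test these calls. Low values did not fall on steps that give whole reads (20.96% of 11620 ratios within 0.1 of a whole number, where 20% would be found by chance), so the depth is unknown and no count test was run.

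Named genes were the 12 largest rises and 12 largest falls (called, no overlap between the 5 IR and 5 sham libraries, a mean of at least 10 FPKM in the higher group), the called member with the smallest adjusted p in each direction of each of 32 gene lists (at least 5 FPKM), the 6 called genes with the largest SD over IR libraries and the 4 largest rises and falls among transcription factors. A set of 101 best-known markers was left out of these, and some genes and results that the rules would name are not reported here. Other list members given as examples were chosen after their values were seen. The comparison, its members, the gene lists and the motifs were chosen with earlier results of these data known, so lists carry no test. Gene names and promoter windows came from RefSeq (GRCm38.p6), and 18238 of the 19287 entries had a RefSeq name. That build differs from the one of the files, so windows were matched by gene and not by coordinate. The alternatives were TPM, median-ratio and quantile scaling, other pseudocounts (0.1 and 0.5) and filters, a fit of the IR and sham libraries alone, a fit with no trend, library weights, a replicate block and leaving out each library. The table lists 27 entries at 0 in a library although their median is above 5 FPKM, so an exact 0 may be a failed estimate.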

Additional observations from a re-analysis of the deposited data

Results flagged for a closer look

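In groups of 5 libraries, the gap of the highest or lowest library to its neighbour was large against the whole range of the group in 7 of 180 groups of named genes, and chance alone gives about 1 in 20. In IR, replicate 5 stood apart in 2 of them, at 77.7 FPKM for Cyp2a4 (27.8 to 37.4 in the other 4 IR libraries) and at 45.3 FPKM for Gars (48.9 to 50.04 in the others). In sham, replicate 1 stood apart for Cyp2d9 (214 FPKM, others 129 to 135) and for Igfbp3 (140.2 FPKM, others 98.3 to 111). Sham replicate 3 was at 17.98 FPKM for Irf7 (others 8.37 to 11.01), sham replicate 4 at 22.8 FPKM for Junb (others 14.7 to 16.5) and sham replicate 2 at 0.14 FPKM for Sprr2f, which was listed at 0 in the others. All 7 genes kept their direction and call when that library was left out.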

How the results depend on the processing

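Library scaling moved the counts over all entries the most. The number of lower entries was 2529, against 4242 with median-ratio and 5294 with quantile scaling, the number of higher entries was 7747, against 4222 with quantile scaling, and the median over all entries was 0.29, against 0.0642 with median-ratio scaling, 0.136 without a filter on low values and -0.0609, below 0, with quantile scaling. Leaving out 1 library at a time gave 7504 to 7675 higher and 2372 to 2525 lower entries. Replicate numbers of IR and sham did not pair the libraries (correlations of same-numbered deviations -0.122, 0.0509, -0.00828, -0.0707 and -0.0383), and with a replicate block 10166 entries were called, 7635 higher and 2531 lower, 9960 of them also called without it. Of 1887 values of the 90 named genes under the alternatives, 1871 kept their direction and call, 16 lost the call and 0 changed sign. The lost calls were those of Gpt2 and Kcnk1 with median-ratio scaling (Gpt2 also with quantile scaling) and of Utp20 and Xpc with TPM scaling, a replicate block or 1 library left out. Of 32 list medians 9 changed sign under some alternative. With all called entries in place of those at least 2-fold changed, the AP-1 share of higher entries was 5.04%, the E-box share 9.75% and the interferon motif share 7.86%, and the other 11 shares stayed inside their intervals. The read depth, which limits how well low genes can be told apart, is unknown.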
